A study of Mus musculus with 12 samples.

Results

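Ribosome biogenesis and nucleolar genes were followed across MBD2-deleted and MBD2-wild-type T-cell leukaemias and CD4+CD8+ thymocytes of the mouse. The set holds 42 named genes: those of RNA polymerase I and its start factor, the small nucleolar ribonucleoproteins (snoRNPs) that modify ribosomal RNA, assembly factors of the small and the large ribosomal subunit, abundant nucleolar proteins, and enzymes of polyamine and pyrimidine synthesis. A gene entered through the probe sets that the array annotation assigns to it alone, and was read from the one with the highest mean log2 value over the 12 arrays. By this rule 41 of the 42 members were measured among 18193 genes, all 41 passed the filter on dim genes that left 15420 genes to test, and Npm3 was not analysed here.

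The study asked what the loss of MBD2, a protein that binds methylated CpG sites, changes in acute T-cell leukaemia (T-ALL) driven by Notch1. The 4 groups of 3 arrays each were GFP+ bone marrow leukaemia cells with MBD2 deleted (KO T-ALL), the same cells with wild-type MBD2 (WT T-ALL), CD4+CD8+ thymocytes of MBD2-deleted mice at steady state (KO DP, for double positive) and those of wild-type mice (WT DP). The leukaemia cells were sorted from transplanted recipients once over 50% of their white blood cells were GFP+, so leukaemias and thymocytes differ in tissue, host and Notch1 transformation together, and in the wild type also in sex by their Xist levels. The labels name no strain, sex, age or Cre, and they do not say whether the 3 leukaemias of a genotype came from separate transductions. The p-values therefore measure only the spread between these samples, which may be technical, and the 3 arrays per group limit the precision. RNA was measured on Affymetrix mouse 430 2.0 arrays, and the authors deposited a linear intensity for each probe set. Values were compared as log2(intensity + 16), each difference tested with limma over all 15420 genes and called at a Benjamini-Hochberg adjusted p under 0.05. In bulk RNA, fewer cells of a type and less RNA per cell cannot be told apart.

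Ribosomes are assembled in the nucleolus. RNA polymerase I transcribes a long precursor RNA there, box C/D snoRNPs guide its ribose methylation and box H/ACA snoRNPs the conversion of uridine to pseudouridine, and assembly factors fold, cut and export the particles that become the small and large subunits. Growing and dividing cells make more ribosomes than resting ones, MYC is a known activator of many of these genes, and most CD4+CD8+ thymocytes are small cells that have left the cell cycle.

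The deleted gene followed its labels: Mbd2 gave 41.4, 55.7 and 66.0 in KO T-ALL against 957, 742 and 762 in WT T-ALL, and 67.6, 84.3 and 64.4 in KO DP against 1372, 993 and 1043 in WT DP. T-cell markers were above the highest intensity of an added control transcript that was absent (35.3) for 7 of 7 genes in all groups, and summed to between 20010 and 22110 in KO T-ALL, 24580 and 28760 in WT T-ALL, 33670 and 40480 in KO DP, and 35250 and 42750 in WT DP. In KO against WT T-ALL, 2 of the 7 were lower, Cd2 (limma log2 −3.66, adjusted p = 0.000923) and Thy1 (log2 −2.37, adjusted p = 0.000201), and 0 higher. The CD4+CD8+ thymocyte markers summed to between 3639 and 5052 in KO T-ALL, 7939 and 10570 in WT T-ALL, 32400 and 43690 in KO DP, and 34680 and 44730 in WT DP, with Rag1, Rag2 and Ptcra at or under that floor in KO T-ALL and Rag2 in WT T-ALL. Of the 7 measured, 5 were lower in KO than in WT T-ALL and 1 higher. The higher one was Dntt (mean 4003 against 1350, limma log2 1.59, adjusted p = 0.0129). Myeloid markers summed to between 263 and 720 in KO T-ALL and 888 and 1742 in WT T-ALL, with Itgam, Adgre1, Mpo and Elane at or under the floor in both. Of the 8 measured, 2 were lower in KO T-ALL (Lyz2 at log2 −0.59 and Mpo at −0.36) and 0 higher. Lyz2 was also under the floor in KO T-ALL, so the order of Mpo and the size for Lyz2 are uncertain. S100a8 and S100a9 had the largest differences of the 8 (limma log2 −1.96 and −1.79) and did not pass (adjusted p = 0.0647 and 0.0979). Stroma markers summed to between 344 and 504 in KO T-ALL and 149.9 and 168 in WT T-ALL, with 2 of 6 higher in KO T-ALL (Epcam at log2 2.42 and Col1a1 at 0.84) and Foxn1, Krt8 and Pdgfra at or under the floor in both. Erythroid markers summed to between 185 and 226 in KO T-ALL and 225.5 and 252 in WT T-ALL, with 2 of 4 lower in KO T-ALL (Alas2 at log2 −0.69 and Epor at −0.67) and Hba-a1 at or under the floor in both. Alas2 was also under it in KO T-ALL. Klf1 went the other way, without overlap, and did not pass (limma log2 0.68, adjusted p = 0.0602). Of 4 B-cell markers, Cd79b was higher in KO T-ALL (log2 0.65, limma adjusted p = 0.0248) and under the floor in WT T-ALL. The other B-cell markers were at or under the floor in both. Of 3 antigen-presentation markers, 0 passed. The part of these marker differences in the members' results was not tested. Xist, looked up with its values known, marks female cells and gave 36.8, 40.8 and 32.1 in KO T-ALL against 3846, 4819 and 3915 in WT T-ALL, and 43.05, 36.8 and 39.4 in KO DP against 28.65, 31.8 and 45.7 in WT DP. Sex and genotype therefore cannot be told apart between the leukaemias, nor sex and leukaemia between WT T-ALL and WT DP, while Xist did not pass between KO T-ALL and KO DP (log2 −0.09, adjusted p = 0.637). Sex also enters the difference between the genotype effects (Xist log2 −6.45). Dkc1 is the only member on the X chromosome. Signal from the poly-A control transcripts added before labelling was present on 5 arrays (KO T-ALL 1, WT T-ALL 1 and 2, WT DP 1 and 2) and absent on the other 7, and the Gapdh 3′ to 5′ ratio, a sign of RNA integrity, was 0.964 to 1.14 on arrays with signal and 1.12 to 3.68 on those without.

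Promoters are shown for members that the results return to: Imp4, Mybbp1a, Gar1 and Nhp2, which were lower in KO T-ALL than in WT T-ALL, and Utp20, which was not. The sequences run from 250 bases before the RefSeq gene start to 50 bases from it on, in build GRCm38.p6. They lie at chr1:34439579-34439878 (plus strand) for Imp4, chr11:72441077-72441376 (plus strand) for Mybbp1a, chr10:88826765-88827064 (minus strand) for Utp20, chr3:129831347-129831646 (minus strand) for Gar1 and chr11:51619523-51619822 (plus strand) for Nhp2. Capitals mark the E-box CACGTG, the letters MYC and related factors bind, in Imp4, Mybbp1a and Utp20, the NRF1 motif in Mybbp1a, and the ETS motif CCGGAAG on either strand in Gar1 and Nhp2.
Imp4: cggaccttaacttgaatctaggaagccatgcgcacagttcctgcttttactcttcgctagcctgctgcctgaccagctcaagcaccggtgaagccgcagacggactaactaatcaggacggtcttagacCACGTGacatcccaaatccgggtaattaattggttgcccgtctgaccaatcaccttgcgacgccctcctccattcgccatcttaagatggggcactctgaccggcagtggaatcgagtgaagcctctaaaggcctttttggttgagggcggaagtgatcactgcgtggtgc
Mybbp1a: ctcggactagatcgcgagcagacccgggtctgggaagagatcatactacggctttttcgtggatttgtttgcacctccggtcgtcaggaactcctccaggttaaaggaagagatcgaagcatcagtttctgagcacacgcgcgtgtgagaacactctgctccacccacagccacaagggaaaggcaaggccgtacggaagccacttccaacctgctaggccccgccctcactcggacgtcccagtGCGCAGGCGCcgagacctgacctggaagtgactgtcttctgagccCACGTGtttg
Utp20: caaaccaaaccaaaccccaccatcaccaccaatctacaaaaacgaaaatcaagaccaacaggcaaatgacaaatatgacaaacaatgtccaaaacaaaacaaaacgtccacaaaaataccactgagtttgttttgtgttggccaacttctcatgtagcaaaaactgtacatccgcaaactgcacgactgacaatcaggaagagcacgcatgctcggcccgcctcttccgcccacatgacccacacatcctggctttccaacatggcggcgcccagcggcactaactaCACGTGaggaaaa
Gar1: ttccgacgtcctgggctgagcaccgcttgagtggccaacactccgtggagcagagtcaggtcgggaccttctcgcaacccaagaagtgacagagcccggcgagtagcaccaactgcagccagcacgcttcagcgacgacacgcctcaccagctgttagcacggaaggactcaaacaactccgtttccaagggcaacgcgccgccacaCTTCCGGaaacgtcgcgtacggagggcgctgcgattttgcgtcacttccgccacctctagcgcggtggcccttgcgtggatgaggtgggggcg
Nhp2: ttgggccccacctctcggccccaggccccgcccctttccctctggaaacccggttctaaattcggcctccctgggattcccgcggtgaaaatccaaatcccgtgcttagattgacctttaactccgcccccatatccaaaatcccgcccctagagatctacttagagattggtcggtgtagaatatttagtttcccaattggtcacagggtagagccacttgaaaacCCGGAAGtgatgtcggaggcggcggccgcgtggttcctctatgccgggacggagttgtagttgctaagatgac
The E-box begins at −121 in Imp4, at 41 in Mybbp1a and at 38 in Utp20, counted from the gene start. The table of promoters held 37 of the 42 members, and 8 of these 37 (21.6%) had the E-box within the 300 bases: Imp4, Mybbp1a, Nop2, Pes1, Rrn3, Tsr1, Utp20 and Wdr43. It stood in 10.7% of the promoters of all genes tested and in 17.5% of 137 promoters of other ribosome biogenesis genes. The ETS motif was found in 12 member promoters (32.4%, against 16.9% of genes tested), the NRF1 motif (GCGC, any base and TGCGC) in 6 (16.2%, against 9.61%), the GC box GGGCGG in 28 (75.7%, against 61.7%) and CCAAT in 11 (29.7%, against 42.2%), each searched on both strands and counted without regard to the other motifs. Of the members lower in KO T-ALL, 10 had a promoter in the table and 2 of these held the E-box. A match only says that these letters stand in the window.

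In leukaemia cells, 11 of the 41 members were lower with MBD2 deleted, and 0 were higher (1, Utp20, at an unadjusted p under 0.05). The 11 were the box H/ACA genes Gar1, Nhp2 and Dkc1, the small-subunit genes Bysl and Imp4, the large-subunit genes Ppan and Noc3l, the nucleolar genes Gnl3 and Mybbp1a, and the polyamine genes Srm and Odc1. Of all genes tested, 6.98% were lower and 9.19% higher in KO than in WT T-ALL. The median difference over the members was log2 −0.50, beside −0.06 over all genes tested, and 39 of 41 members lay below 0, as did 9447 of the 15420 genes tested. The KO arrays were all below the WT arrays for 23 members, as they were for 18.4% of the genes tested, and all above them for 1 member, as for 15% of the genes tested. Except for Srm, every member that passed differed by less than 2-fold. With each array centred on its 75th percentile, all genes split into 1355 higher and 1656 lower, in place of 1417 and 1076, and 24 members were lower. In these groups samples of equal number deviated together, and the Gapdh 3′ to 5′ ratio rose with the number in both. Pairing and a shared order of RNA quality therefore cannot be told apart. With the replicate number as a block, 23 members were lower. Without WT T-ALL 2 the count was 4, without WT T-ALL 1 it was 5 and without KO T-ALL 2 it was 7. Counts over all genes tested are not given for the block and the arrays left out. Among the arrays that carried poly-A signal, 1 KO array against 2 WT arrays, 40 of 41 members lay below 0, with a median of log2 −0.54 beside −0.07 over all genes tested. Among those that did not, 2 KO arrays against 1 WT array, 37 lay below 0, with a median of −0.34 beside −0.04. The counts of lower calls within these sets, 18 and 0, assume that the lone array varies like the other group's and take the spread from 2 arrays, so they say nothing of stability; in the second set 0 of all genes tested passed either way.

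**Figure D1:**
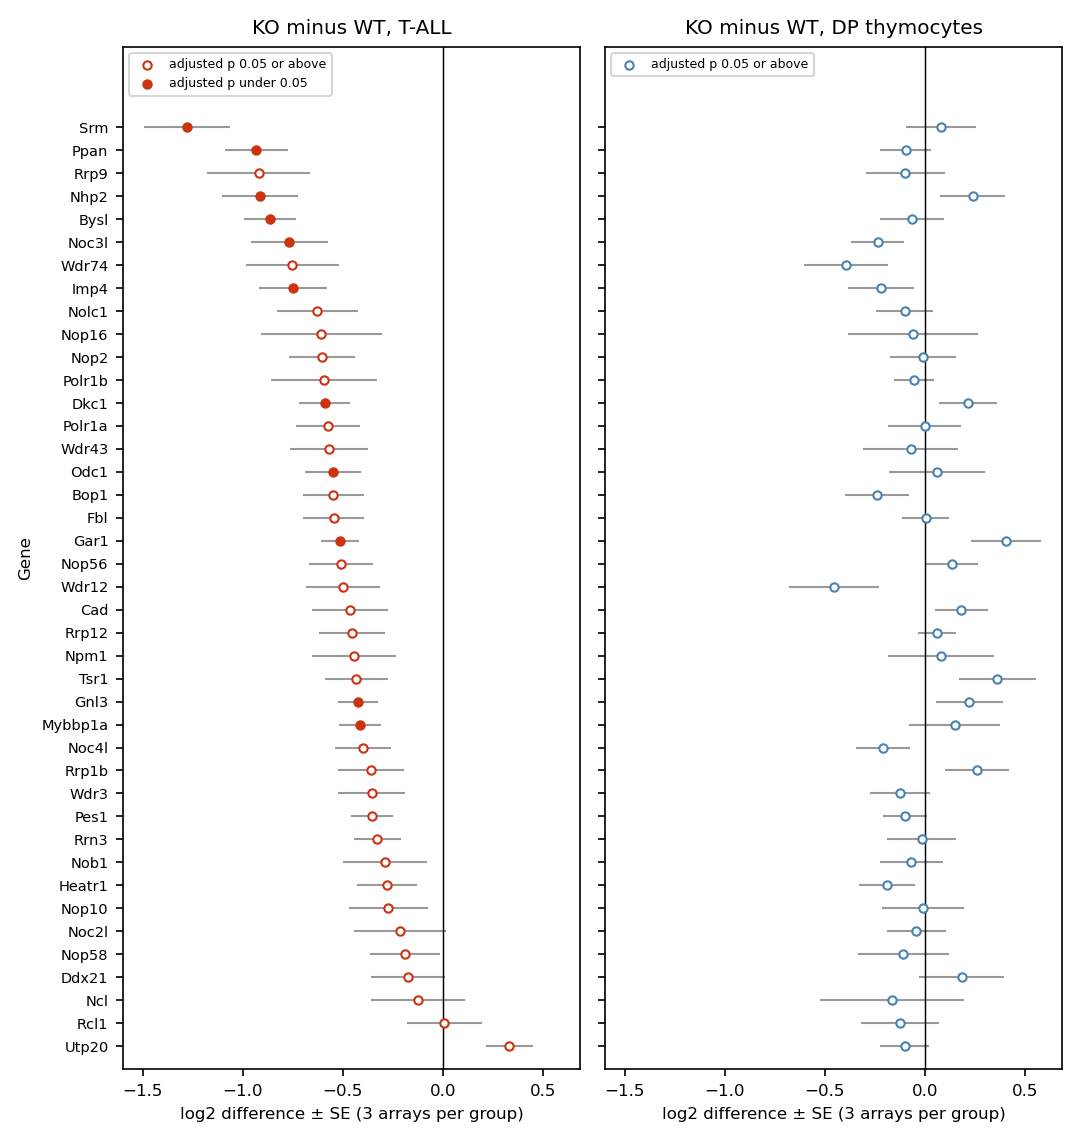
The KO minus WT difference of each member on the log2 scale with its standard error, in T-ALL on the left and in DP thymocytes on the right, 3 arrays per group, ordered by the T-ALL difference. Filled points passed an adjusted p under 0.05: 11 members in T-ALL, all left of 0, and 0 in thymocytes, where points lie on both sides of 0.

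Srm, the gene of spermidine synthase, had the widest gap of the members. It gave 651, 748 and 1178 on the 3 KO T-ALL arrays against 2165, 1959 and 2007 on the 3 WT T-ALL arrays (log2 −1.28, SE 0.21, adjusted p = 0.00803). The highest KO array stayed far below the lowest WT array. Odc1, whose product ornithine decarboxylase makes the putrescine that Srm's product uses, gave 1626, 1514 and 1163 in KO T-ALL against 2071, 2133 and 2052 in WT T-ALL (log2 −0.55, SE 0.14, adjusted p = 0.0411). The groups did not overlap, and KO T-ALL 3 was the lowest array. Leaving aside the fits within the poly-A sets, the call of Odc1 was lost in 9 of 19 other settings. Cad encodes the enzyme of the first steps of pyrimidine synthesis. It gave 639, 901 and 1042 in KO T-ALL against 1124, 1088 and 1307 in WT T-ALL, without overlap, and did not pass (log2 −0.46, SE 0.19, adjusted p = 0.160).

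Of the 4 box H/ACA genes, 3 fell. Nhp2 gave 2745, 1724 and 2389.8 in KO T-ALL against 4777, 4248 and 3762 in WT T-ALL (log2 −0.91, SE 0.19, adjusted p = 0.0190). Gar1 gave 1294, 1151 and 1218 in KO T-ALL against 1819.8, 1694 and 1733 in WT T-ALL (log2 −0.51, SE 0.10, adjusted p = 0.0122). Both encode partners of the pseudouridine synthase dyskerin, and neither showed overlap between genotypes. Dkc1, the gene of dyskerin itself, which also serves in telomerase, gave 2236, 2626 and 2519 in KO T-ALL against 3781, 4179 and 3223 in WT T-ALL (log2 −0.59, SE 0.13, adjusted p = 0.0237). The fourth core gene, Nop10, gave 3654, 2887 and 4918 in KO T-ALL against 4271, 4336 and 4958 in WT T-ALL, overlapped between genotypes and did not pass (log2 −0.27, SE 0.20, adjusted p = 0.431).

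Among the 11 small-subunit genes, 2 fell. Bysl, the gene of bystin, which binds late precursors of the small subunit, gave 363, 419.7 and 453 in KO T-ALL against 858, 681 and 751 in WT T-ALL (log2 −0.86, SE 0.13, adjusted p = 0.00518). It had the smallest p of the members in this comparison. Imp4, a component of the particle that holds the U3 snoRNA, gave 468, 374 and 436 in KO T-ALL against 899.8, 703 and 599 in WT T-ALL (log2 −0.75, SE 0.17, adjusted p = 0.0260). Further Imp4 probe sets read −0.28 and −0.10. Leaving aside the fits within the poly-A sets, the call of Imp4 was lost in 5 of 19 other settings, among them the mean of probe sets. The other small-subunit genes ranged from −0.57 for Wdr43 to 0.33 for Utp20 and did not pass. Utp20, a large scaffold protein of the small-subunit processome, was the member whose KO arrays all lay above the WT arrays, at 997, 1016 and 1173 in KO T-ALL against 837, 762 and 924 in WT T-ALL (log2 0.33, SE 0.12, adjusted p = 0.114). Rcl1, needed in yeast for a cut in the precursor RNA, differed by 0.01.

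Among the 10 large-subunit genes, 2 fell. Ppan, related to a yeast assembly factor of the large subunit, gave 643, 596 and 585 in KO T-ALL against 1478, 1098 and 998 in WT T-ALL (log2 −0.93, SE 0.16, adjusted p = 0.00823). Noc3l, known in yeast as a nuclear export and assembly factor, gave 126, 140.1 and 115 in KO T-ALL against 309, 203 and 185 in WT T-ALL (log2 −0.77, SE 0.19, adjusted p = 0.0386). In both genes the KO arrays lay close together below the WT arrays, of which WT T-ALL 1 was the highest. A further Noc3l probe set read −0.23. Leaving aside the fits within the poly-A sets, the call of Noc3l was lost in 8 of 19 other settings, among them the mean of probe sets. Bop1, Pes1 and Wdr12 encode the 3 proteins of the PeBoW complex, which acts on the large-subunit precursor. Their differences were −0.55, −0.36 and −0.50 (limma adjusted p 0.0536, 0.0647 and 0.128). A further Wdr12 probe set read 0.18, so the direction of Wdr12 is uncertain here. The rest of the large-subunit genes lay between −0.75 for Wdr74 and −0.21 for Noc2l.

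Of the 6 nucleolar proteins measured, Gnl3 and Mybbp1a passed. Gnl3, the gene of nucleostemin, gave 1572, 1748 and 1763 in KO T-ALL against 2405, 2183 and 2238 in WT T-ALL (log2 −0.42, SE 0.10, adjusted p = 0.0300). Mybbp1a, whose product binds MYB and sits in the nucleolus, gave 2054, 2015 and 2341 in KO T-ALL against 3003, 2673 and 2876 in WT T-ALL (log2 −0.41, SE 0.11, adjusted p = 0.0409). Leaving aside the fits within the poly-A sets, both calls were lost in 11 of 19 other settings, more than for any other of the 11, while those of Srm, Ppan and Bysl were lost in 0 of the 19. The nucleolin gene Ncl, the nucleophosmin gene Npm1, the snoRNP chaperone gene Nolc1 and the helicase gene Ddx21 differed by −0.12, −0.44, −0.63 and −0.17 and did not pass.

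Neither RNA polymerase I nor the box C/D snoRNP had a member that passed. The differences were −0.57 for Polr1a and −0.59 for Polr1b, which encode the largest subunits of the polymerase, and −0.33 for its start factor gene Rrn3 (adjusted p 0.0568, 0.201 and 0.115). Fbl, the gene of the methyltransferase fibrillarin, differed by −0.55, its scaffold partners Nop56 and Nop58 by −0.51 and −0.19, and Rrp9, a protein particular to the U3 snoRNP, by −0.92 (adjusted p 0.0533, 0.0799, 0.550 and 0.0558). The members just past the threshold were Mybbp1a and Odc1 (adjusted p 0.0409 and 0.0411), and those just short of it Nop2, Fbl and Bop1 (0.0505, 0.0533 and 0.0536). In all, 9 members had an adjusted p between 0.05 and 0.10, and 17 of the 30 that did not pass had an unadjusted p under 0.05. Of all 41, 28 had an unadjusted limma p under 0.05, as had 4466 of the 15420 genes tested.

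In thymocytes, no member passed the test between the genotypes. The count was 0 higher and 0 lower by limma, where 0.0195% of all genes tested were higher and 0.013% lower. An unadjusted limma p under 0.05 was reached by 0 members, and by 722 of the 15420 genes tested. The median over the members was log2 −0.05, beside −0.02 over all genes tested, 26 of 41 members lay below 0, as did 8409 of the 15420 genes tested, and the KO arrays lay wholly above or below the WT arrays for 0 of them, where 4.06% of genes tested lay above and 4.58% below. Gar1 had the smallest p, at 504, 326 and 416 in KO DP against 336, 262 and 322 in WT DP (log2 0.41, SE 0.18, adjusted p = 0.982). Its groups overlapped, since KO DP 2 lay below WT DP 1.

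The genotype difference itself differed between leukaemias and thymocytes for 6 members, all in the same direction, where 4.74% of all genes tested were lower and 7.86% higher in this interaction. They were Srm (log2 −1.36, SE 0.30, adjusted p = 0.0103), Nhp2 (log2 −1.15, SE 0.26, adjusted p = 0.0138), Gar1 (log2 −0.92, SE 0.21, adjusted p = 0.0118), Ppan (log2 −0.84, SE 0.21, adjusted p = 0.0199), Dkc1 (log2 −0.81, SE 0.20, adjusted p = 0.0193) and Bysl (log2 −0.80, SE 0.21, adjusted p = 0.0293). Each is also among the 11 members lower in KO T-ALL, with which this test shares the leukaemia arrays. The median over the members was log2 −0.53, beside −0.05 over all genes tested. In thymocytes Srm gave 234, 166 and 236 in KO DP against 229, 163 and 206 in WT DP, and Nhp2 gave 676, 909 and 838 in KO DP against 812, 658 and 582 in WT DP. Dkc1 gave 906, 849 and 1099 in KO DP against 921, 707 and 822 in WT DP. The thymocyte genotypes overlapped in these genes, and their arrays all lay below the lowest leukaemia array. The interaction of Srm, Gar1 and Nhp2 passed in all 24 other settings tried, that of Dkc1 and Ppan in 23 and that of Bysl in 14.

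**Figure D2:**
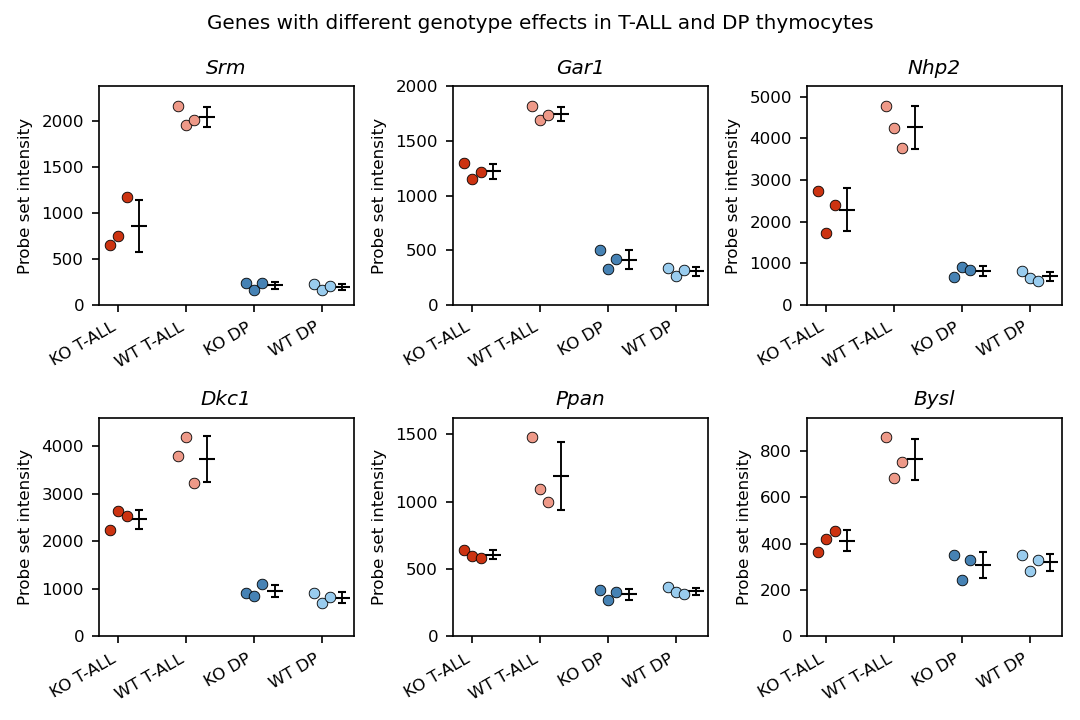
Probe set intensity of the 6 genes with a tested difference between the genotype effects, on a linear axis from 0, for each array (points, replicates 1 to 3 from left to right) with the group mean and SD beside them, n = 3. KO T-ALL lies below WT T-ALL without overlap in each gene, and the genotypes of the thymocytes overlap.

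Against thymocytes, nearly the whole set was higher in leukaemia. With MBD2 deleted, 36 of 41 members were higher in KO T-ALL than in KO DP and 0 lower, where 18.5% of all genes tested were higher and 11% lower. The median over the members was log2 1.34, beside 0.01 over all genes tested, and 28 members were at least 2-fold and 5 at least 4-fold higher. The KO T-ALL arrays lay above the KO DP arrays for 38 members, as for 24.4% of genes tested. In the wild type, 40 members were higher in WT T-ALL than in WT DP and 0 lower, where 19.7% of all genes tested were higher and 14.2% lower. Here the median was log2 1.79, beside 0.06 over all genes tested, and 35 members were at least 2-fold and 13 at least 4-fold higher. For 40 members the WT T-ALL arrays lay above all WT DP arrays, as they did for 27.6% of genes tested. These 2 comparisons share no arrays. All 36 members higher in the MBD2-deleted pair were also higher in the wild-type pair, 4 (Nop10, Imp4, Bysl and Noc2l) were higher in the wild-type pair only, and Wdr12 passed in neither; of the 4, the interaction passed for Bysl alone. The difference was larger in the wild-type pair for 38 members, as it was for 8833 of the 15420 genes tested. The test of that is the interaction above, which passed for 6 members. WT T-ALL, which enters both, is the group with high Xist.

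**Figure D3:**
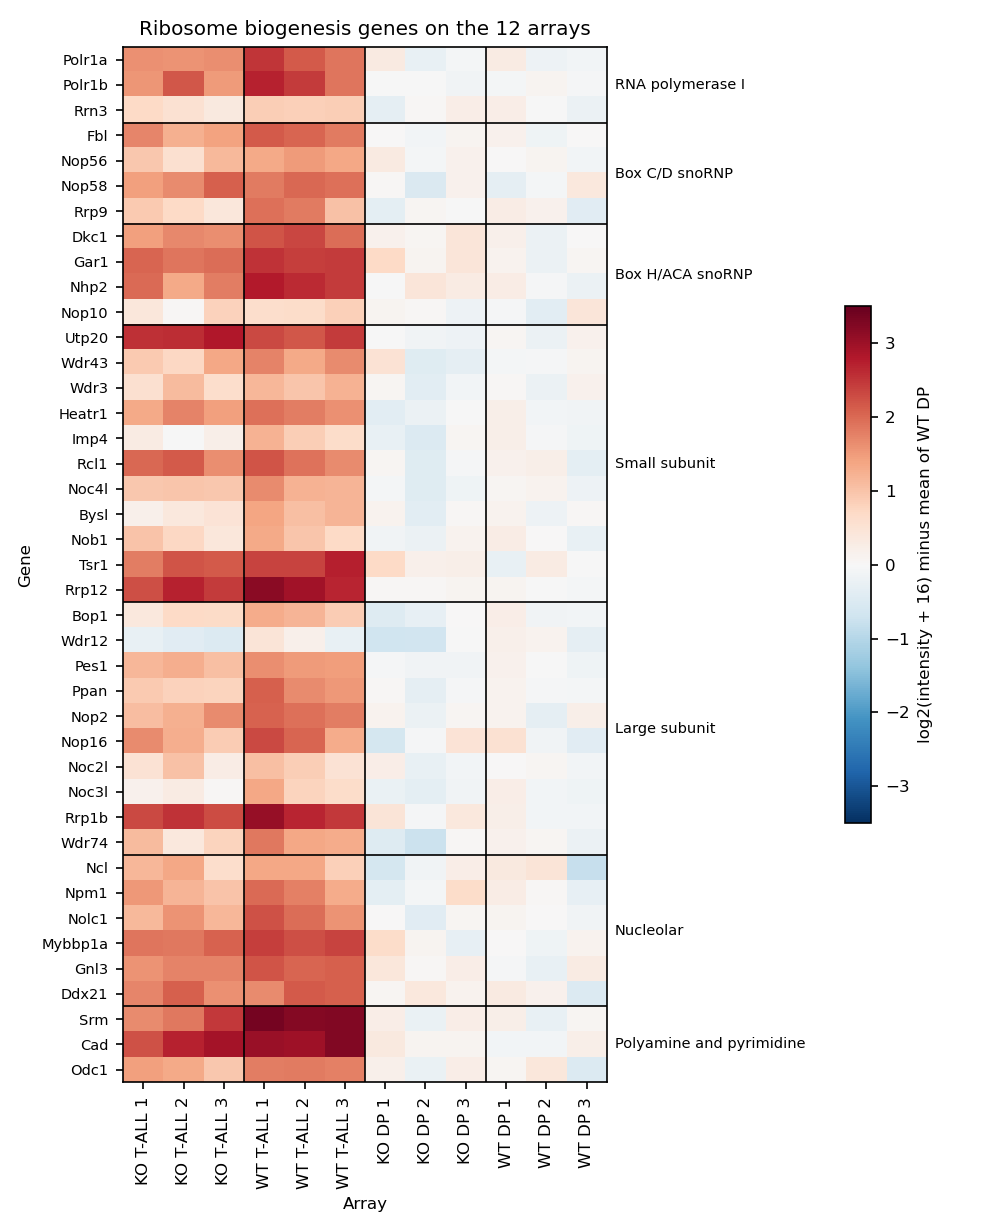
Each member on each of the 12 arrays as log2(intensity + 16) minus the mean of the 3 WT DP arrays, so that white is the WT DP level and red is higher. KO T-ALL stands left, then WT T-ALL, KO DP and WT DP, with genes grouped by role. Both leukaemia groups are red for nearly all genes, WT T-ALL most deeply, and Wdr12 stays pale.

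The enzyme genes Cad and Srm had wide gaps. Cad gave 639, 901 and 1042 in KO T-ALL against 163, 134 and 135 in KO DP (log2 2.43, SE 0.19, adjusted p = 0.000115), and 1124, 1088 and 1307 in WT T-ALL against 115, 115 and 146 in WT DP (log2 3.07, SE 0.13, adjusted p = 1.41e-05). Srm differed by log2 1.91 in the MBD2-deleted pair (adjusted p = 0.00104) and by 3.27 in the wild-type pair (adjusted p = 1.41e-05). No leukaemia array of either gene came near a thymocyte array. Odc1 was higher by 1.18 and 1.79 in the same pairs.

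RNA polymerase I genes were higher in both pairs. Polr1b gave 270.4, 435 and 261 in KO T-ALL against 82.1, 81.8 and 74.2 in KO DP (log2 1.79, SE 0.19, adjusted p = 0.000517), and 619, 520.2 and 346 in WT T-ALL against 78.4, 90.8 and 80.3 in WT DP (log2 2.33, SE 0.21, adjusted p = 0.000212). Polr1a gave 278, 272 and 286 in KO T-ALL against 105, 65.5 and 77.0 in KO DP (log2 1.60, SE 0.15, adjusted p = 0.000301), and 532, 415 and 341 in WT T-ALL against 102, 69.9 and 74.4 in WT DP (log2 2.17, SE 0.19, adjusted p = 0.000216). Both subunits separated leukaemias from thymocytes without overlap. Rrn3 was higher by 0.54 in the MBD2-deleted pair and 0.86 in the wild-type pair, and its call in the MBD2-deleted pair was lost in 9 of 19 other settings.

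All 4 box C/D genes were higher in both pairs. Fbl gave 4916, 3589 and 3968 in KO T-ALL against 1522, 1394 and 1593 in KO DP (log2 1.45, SE 0.14, adjusted p = 0.000315), and 6650.2, 6171 and 5331 in WT T-ALL against 1659, 1341 and 1508 in WT DP (log2 2.00, SE 0.13, adjusted p = 6.40e-05). Nop56 was higher by 0.75 and 1.39, Nop58 by 1.83 and 1.92, and Rrp9 by 0.77 and 1.59, each first in the MBD2-deleted and then in the wild-type pair, as in the lists that follow. Of the box H/ACA genes, Nhp2 was higher by 1.47 and 2.62, Gar1 by 1.54 and 2.46, and Dkc1 by 1.36 and 2.17. Nop10 did not pass in the MBD2-deleted pair (log2 0.43, SE 0.20, adjusted p = 0.167) and passed in the wild-type pair (log2 0.69, SE 0.20, adjusted p = 0.0367).

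Among small-subunit genes, 9 of 11 were higher in the MBD2-deleted pair and 11 in the wild-type pair. Utp20 gave 997, 1016 and 1173 in KO T-ALL against 155, 141 and 136 in KO DP (log2 2.75, SE 0.11, adjusted p = 6.82e-06), and 837, 762 and 924 in WT T-ALL against 163, 133 and 174 in WT DP (log2 2.31, SE 0.13, adjusted p = 3.97e-05). Rrp12, an export factor of small-subunit precursors in yeast, gave 211, 288 and 241 in KO T-ALL against 33.1, 32.9 and 34.1 in KO DP, and 404, 345 and 286 in WT T-ALL against 34.5, 30.4 and 29.1 in WT DP (log2 2.40 and 2.92, adjusted p = 2.16e-05 and 2.22e-05). Its thymocyte arrays were all under the control floor of 35.3, so the thymocyte level cannot be told from background and the size of the difference is uncertain. Tsr1, which acts on late small-subunit precursors, was higher by 1.69 and 2.48, Rcl1 by 2.06 and 1.92, and Heatr1, needed for transcription and early processing, by 1.69 and 1.78. The processome genes Wdr43 and Wdr3 were higher by 1.07 and 0.88 in the MBD2-deleted pair and by 1.57 and 1.12 in the wild-type pair. Noc4l was higher by 1.16 and 1.35, and Nob1, the gene of the nuclease that makes the final cut of the small-subunit RNA, by 0.78 and 1.00. Bysl did not pass in the MBD2-deleted pair (log2 0.41, SE 0.16, adjusted p = 0.102) and passed in the wild-type pair (log2 1.21, SE 0.13, adjusted p = 0.000493), and likewise Imp4 (0.38 and 0.91).

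Among large-subunit genes, 8 of 10 were higher in the MBD2-deleted pair and 9 in the wild-type pair. Rrp1b gave 618, 733 and 610.4 in KO T-ALL against 159, 109 and 152 in KO DP (log2 2.11, SE 0.16, adjusted p = 9.62e-05), and 1046, 809 and 703 in WT T-ALL against 132, 104 and 105 in WT DP (log2 2.73, SE 0.17, adjusted p = 5.27e-05). Pes1 gave 831, 899 and 765 in KO T-ALL against 346, 329 and 327 in KO DP (log2 1.27, SE 0.10, adjusted p = 0.000142), and 1136, 1044 and 1023 in WT T-ALL against 404, 353 and 325 in WT DP (log2 1.53, SE 0.11, adjusted p = 0.000106). Both genes separated leukaemias from thymocytes without overlap. Ppan was higher by 0.92 and 1.76, Nop2, an RNA methyltransferase gene, by 1.34 and 1.93, and Bop1 by 0.82 and 1.13. A further, dimmer Bop1 probe set read −0.50 and 0.26. With the mean of probe sets the call of Bop1 in the MBD2-deleted pair was lost. Nop16 (1.34 and 1.88), Wdr74 (1.14 and 1.50) and Noc3l (0.39 and 0.92) passed in both pairs, and Noc2l in the wild-type pair only (0.64 and 0.81). A further Noc2l probe set had the higher mean intensity (392 against 368) but not the higher mean log2 value. It read 1.26 and 1.77, so the size of the Noc2l differences is uncertain. The call of Noc3l in the MBD2-deleted pair was lost in 11 of 19 other settings. Wdr12 gave 716, 651 and 612 in KO T-ALL against 523, 539 and 859 in KO DP (log2 0.08, SE 0.20, adjusted p = 0.837), and 1178, 978 and 715 in WT T-ALL against 984, 939 and 689.8 in WT DP (log2 0.12, SE 0.21, adjusted p = 0.734). A further Wdr12 probe set read the other way, at log2 −1.22 in the MBD2-deleted and −1.23 in the wild-type pair, so the direction of Wdr12 is uncertain.

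All 6 nucleolar genes were higher in both pairs. Mybbp1a was higher by 1.78 in the MBD2-deleted pair, and gave 3003, 2673 and 2876 in WT T-ALL against 555, 495 and 606 in WT DP (log2 2.34, SE 0.11, adjusted p = 2.22e-05). Gnl3 gave 1572, 1748 and 1763 in KO T-ALL against 680.3, 528 and 611 in KO DP (log2 1.46, SE 0.12, adjusted p = 0.000169), and was higher by 2.11 in the wild-type pair. Ddx21 gave 774, 1017 and 719.6 in KO T-ALL against 239, 296 and 251 in KO DP (log2 1.61, SE 0.16, adjusted p = 0.000327) and was higher by 1.96 in the wild-type pair. The leukaemia arrays of these 3 genes all lay above the thymocyte arrays. Nolc1 was higher by 1.39 and 1.92, Npm1 by 1.15 and 1.68, and Ncl by 1.22 and 1.18.

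**Figure D4:**
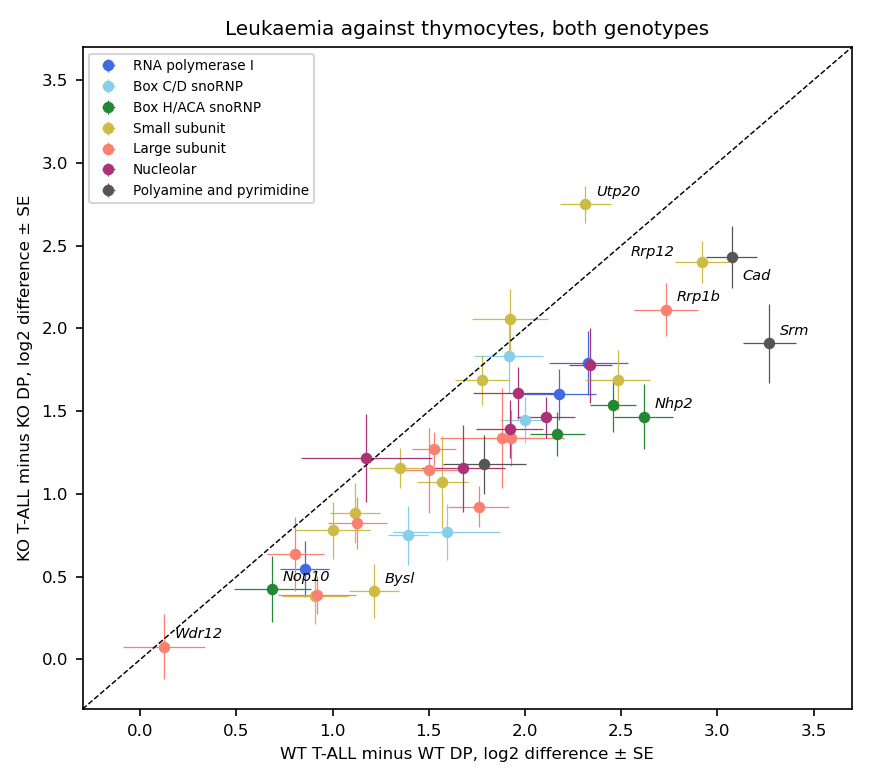
Leukaemia minus thymocyte difference of each member on the log2 scale, MBD2-deleted on the vertical and wild type on the horizontal axis, with standard errors from 3 arrays per group and colours by role. The dashed line marks equal differences: 38 of 41 members lie below it, Utp20 above it, and Wdr12 near 0 on both axes.

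Set in order, KO T-ALL lay between WT T-ALL and KO DP by group mean for 39 of 41 members, an order not counted over all genes tested. Its 3 arrays were above all 6 thymocyte arrays for 37 members, as they were for 19.7% of all genes tested. Relative to the mean of WT DP, the median member stood at log2 1.32, 1.29 and 1.16 on the KO T-ALL arrays and at 1.94, 1.82 and 1.59 on the WT T-ALL arrays. It stood at 0.04, −0.13 and 0.07 on the KO DP arrays and at 0.15, −0.04 and −0.10 on the WT DP arrays. No KO T-ALL array reached a WT T-ALL array in this summary. Within WT T-ALL, replicate 1 was the highest array for 31 members and replicate 3, the only one of the 3 without poly-A signal, the lowest for 26; the part of RNA quality in this spread was not tested. A proliferation list had medians of the same sign, except between the thymocyte genotypes. Its 11 measured genes counted 0 higher and 0 lower in KO against WT T-ALL (median log2 −0.20). In KO T-ALL against KO DP, 5 were higher (45.5%, beside 18.5% of all genes tested) and 0 lower (median 0.45). In WT T-ALL against WT DP, 8 were higher (72.7%, beside 19.7%) and 0 lower (median 0.92). Its median was 0.13 in KO against WT DP, where that of the members was −0.05. Its summed intensity was 33180 to 40290 in KO T-ALL, 39610 to 48140 in WT T-ALL, 29400 to 40700 in KO DP and 25890 to 35950 in WT DP, and its part in the members' differences was not tested.

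Other genes of the pathway are given by count. Of 165 further biogenesis genes, 21 were lower and 4 higher in KO than in WT T-ALL, with a median of log2 −0.37. In KO T-ALL against KO DP, 82 were higher (49.7%, beside 18.5% of all genes tested) and 6 lower (median 0.57). In WT T-ALL against WT DP, 104 were higher (63%, beside 19.7%) and 9 lower (median 0.93). In thymocytes 0 of the 165 passed between genotypes by limma. An unadjusted p under 0.05 was reached by 9 of them, and by 722 of the 15420 genes tested. Wdr18, a large-subunit factor gene, gave 249, 181 and 239 in KO T-ALL against 543, 548 and 409 in WT T-ALL (log2 −1.11, SE 0.17, adjusted p = 0.00514). Rpf2, another large-subunit factor gene, gave 348, 218 and 318 in KO T-ALL against 854, 715 and 512 in WT T-ALL (log2 −1.19, SE 0.24, adjusted p = 0.0162). Neither overlapped. Of 13 snoRNP assembly genes, 5 were lower and 0 higher in KO T-ALL, among them Rpap3, Ruvbl1 and Ruvbl2, partners in a chaperone complex for snoRNPs (−0.74, −0.58 and −0.82). Of 49 small-subunit genes, 5 were lower, with Bud23 at −0.72, Aatf at −0.55 and Rrp7a at −0.82. Of 18 exosome and RNA decay genes, 2 were lower, Exosc8 (−0.91) and Eri1 (−0.47). The lower calls were 12.7% of the 165, 38.5% of the snoRNP assembly, 10.2% of the small-subunit and 11.1% of the exosome genes, beside 6.98% of all genes tested.

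Polyamine, nucleotide and polymerase genes outside the set moved both ways between the leukaemia genotypes. Smox, the gene of spermine oxidase, which turns spermine back into spermidine, gave 609.8, 489 and 317 in KO T-ALL against 139, 100.1 and 80.1 in WT T-ALL (log2 1.98, SE 0.27, adjusted p = 0.00330). It was higher where Srm was lower, with no overlap between genotypes. The CTP synthase genes split, with Ctps lower by log2 −0.81 and Ctps2 higher by 0.67 (adjusted p = 0.0234 and 0.00684). Of 12 further polyamine and nucleotide genes, 2 were higher (16.7%) and 1 lower (8.33%). Among 17 further polymerase I genes, Taf1c and Polr1e were lower (−0.93 and −0.64) and Kat2b, an acetyltransferase gene with wider roles, higher (1.11). The shares in that list were 11.8% lower and 5.88% higher. Nop53 was also higher (0.53), the 1 higher gene of 56 in the large-subunit list, where 6 were lower (10.7%). Of all genes tested, 6.98% were lower and 9.19% higher.

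No ribosomal protein gene passed between the leukaemia genotypes. Of 82 listed, 45 were tested, of 46 that matched a single-gene probe set. In KO against WT T-ALL 0 were higher and 0 lower by limma, and the median was log2 0.01. An unadjusted p under 0.05 was reached by 3 of the 45, and by 4466 of the 15420 genes tested. In KO T-ALL against KO DP 10 were higher (22.2%, near the 18.5% of all genes tested) and 0 lower (median 0.21), with Rps6 at 1.26. In WT T-ALL against WT DP 18 were higher (40%, beside 19.7% of all genes tested) and 0 lower (median 0.36), led by Rpl14 (1.91) and Rps6 (1.29). RNA of near-identical copies can bind such probe sets, so single values are uncertain.

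**Figure D5:**
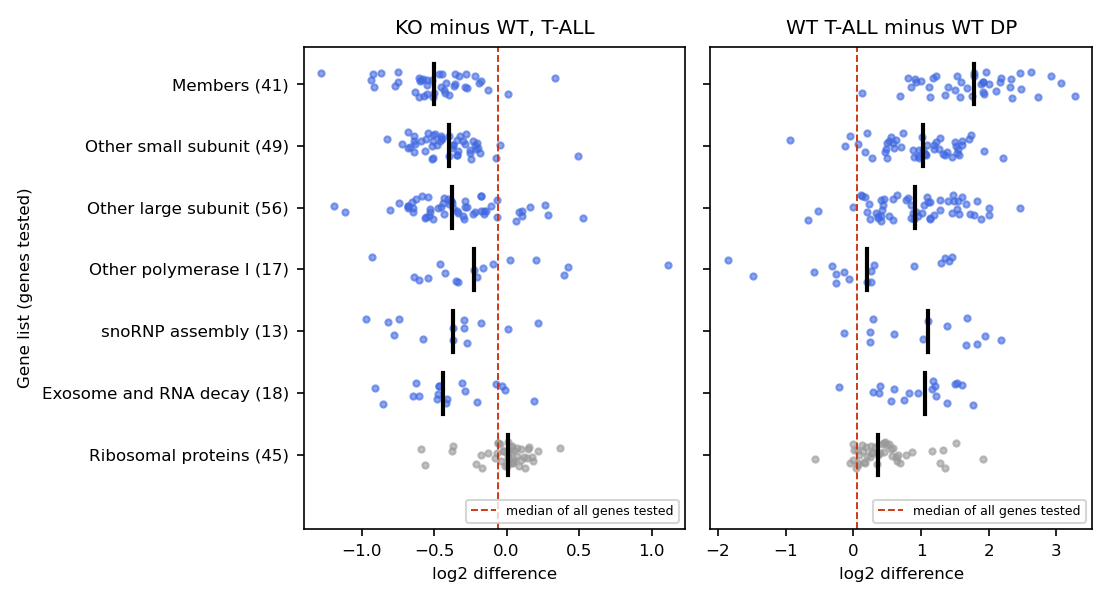
The log2 difference of each gene tested in the members and in 6 other lists of the pathway, KO minus WT T-ALL on the left and WT T-ALL minus WT DP on the right, with a black bar at the list median and a dashed line at the median of all genes tested. The members and 5 of the other lists have medians left of the dashed line on the left panel. The median of the ribosomal proteins lies right of it, at 0.01.

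The members' values could be checked on further probe sets of the same genes. There were 83 single-gene probe sets for the 41 members, and 26 members had more than 1. Of 42 further probe sets, 4 were at or under the floor in all groups. Among the other 38, the sign was that of the probe set used for 36 in KO against WT T-ALL, 20 in KO against WT DP, 35 in KO T-ALL against KO DP and 36 in WT T-ALL against WT DP. These share RNA with the probe sets used and are no replicates. With the mean of all probe sets of a gene, 17 members were lower in KO than in WT T-ALL, a count not set beside all genes tested.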

How the data were processed

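RNA of 12 samples was measured on 1-colour Affymetrix mouse 430 2.0 arrays, from 7 µg of total RNA labelled as biotin cRNA per the labels' protocols. The authors deposited 1 linear intensity per probe set (3.07 to 21620). How probes were summarized and arrays normalized is not given in the sources used here, and no further scaling was applied. Of 45101 probe sets, 34945 carry a single gene, 932 several, 9160 none and 64 are controls. For 18193 genes the brightest single-gene probe set by mean log2 value was used, as log2(intensity + 16). To be tested, a gene had to exceed the 25th percentile on 3 or more arrays, which 15420 did and 2773 did not.

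Each pair of groups was fitted alone with limma 3.58.1 (R 4.3.3), using lmFit, eBayes and Benjamini-Hochberg adjustment over all genes tested, and the difference of genotype effects over all 12 arrays. The code was tested on simulated data. Intensities are given per array or as a mean with its SD. The members, lists, tests and naming rule were chosen with earlier results of these data known. Per array, the text gives members called between genotypes or in the interaction and those with the smallest p per role; of other lists, up to 3 called genes with the smallest p. Further members whose groups or probe sets are discussed were added after their values were seen.

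To check pairing, deviations from group means were correlated across genes between samples of equal number. KO and WT T-ALL gave r of 0.401, 0.235 and 0.549, and WT T-ALL and WT DP 0.445, 0.443 and 0.583. KO and WT DP gave −0.523, 0.145 and −0.494, and KO T-ALL and KO DP −0.391, 0.094 and −0.428. From replicate 1 to 3 the Gapdh ratio rose in KO T-ALL (0.964, 2.00 and 2.98), WT T-ALL (0.969, 1.02 and 2.48) and WT DP (1.08, 1.14 and 3.68). It fell in KO DP (3.33, 2.10 and 1.12). Pairing and a shared order of RNA quality therefore cannot be told apart, and the replicate block served only as an alternative. Alternatives were other scalings, filters, added constants and probe set rules, eBayes with trend, array weights, the replicate block, all arrays in the fit, a block for the poly-A set, a covariate for the Gapdh ratio and each array left out; fits with or without the arrays carrying poly-A signal were added after the data were seen. Promoters come from RefSeq (GRCm38.p6). Figures were drawn in matplotlib 3.10.9 (Python 3.11.15).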

Additional observations from a re-analysis of the deposited data

Results flagged for a closer look

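For 6 members the genotype difference in T-ALL differed from that in DP thymocytes by limma's interaction test over all 12 arrays. The log2 difference of the effects was −1.36 for Srm, −0.92 for Gar1, −1.15 for Nhp2, −0.81 for Dkc1, −0.84 for Ppan and −0.80 for Bysl, with adjusted p of 0.0103, 0.0118, 0.0138, 0.0193, 0.0199 and 0.0293 in the same order. All were lower in KO than in WT T-ALL, and none passed between KO and WT DP. Dkc1 is X-linked, and Xist differed between the leukaemia genotypes; the part of sex in these 6 differences was not tested.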

How the results depend on the processing

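No member's call reversed under any alternative. For KO against WT T-ALL, 11 members were lower, and the count was 24 with centring on the 75th percentile, 17 with the mean of probe sets, 20 with array weights, 23 with the replicate block, 18 with all 12 arrays in the fit, and 4 to 13 with 1 array left out. With only arrays carrying poly-A signal it was 18 and with only arrays without it 0, from fits with 1 array in an arm that is assumed to vary like the other arm, which say nothing of stability. With array weights 1 member was higher, and with 1 array left out 0. Counts over all genes tested are not given for the settings of this section. The exceptions, both stated above for KO against WT T-ALL, are the centring and the arrays without poly-A signal. The median difference of −0.50 became −0.44 with quantile normalization, −0.57 with centring on the 75th percentile, −0.34 without poly-A signal, and −0.53 to −0.41 with 1 array left out. For WT T-ALL against WT DP, 38 to 40 members stayed higher, and the median of 1.79 became 1.63 with a constant of 64 and 1.70 to 1.88 with 1 array left out. For KO T-ALL against KO DP, 1 member was lower with the mean of probe sets, where the median of 1.34 became 1.05, and it was 1.17 with a constant of 64. With 1 array left out, 28 to 36 members were higher there, 28 without KO DP 2. For the difference of genotype effects, 6 members were lower, and the count was 11 with centring on the 75th percentile and 10 with the Gapdh covariate. There 1 member was higher with array weights, a block for the poly-A set and the Gapdh covariate, and the median of −0.53 became −0.66 with centring on the 75th percentile and −0.64 to −0.37 with 1 array left out. The replicate block moved no other count of calls by over 1.5 times. In KO T-ALL against KO DP it kept 31 of the 36 higher calls, and in WT T-ALL against WT DP 40 of 40. The causes of these shifts were not tested, and leaving out an array changed both how many arrays and which arrays remained. Between KO and WT DP 0 members passed in any setting. Levels at or under the floor of 35.3, such as Rrp12 in thymocytes, have no order.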

Other observations

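Myc, a known activator of many ribosome biogenesis genes, gave 599, 911 and 259 in KO T-ALL against 919, 857 and 328 in WT T-ALL, and 35.4, 57.9 and 90.6 in KO DP against 97.3, 110.0 and 47.9 in WT DP. It did not pass between genotypes in either cell type (limma log2 −0.28, SE 0.54, adjusted p = 0.797 in T-ALL; log2 −0.39, SE 0.33, adjusted p = 0.982 in thymocytes), and the leukaemia genotypes overlapped. It was higher in KO T-ALL than in KO DP (log2 2.87, adjusted p = 0.00304) and in WT T-ALL than in WT DP (log2 2.75, adjusted p = 0.00253). Mki67, a gene of dividing cells, passed in none of these comparisons: its mean was 4158 in KO T-ALL, 4422 in WT T-ALL, 5295 in KO DP and 4726 in WT DP.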
